A study of Rattus norvegicus with 9 samples.

Results

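Skeletal muscle transcripts of the sarcomere, of fibre type and of muscle metabolism were followed across 9 libraries of rat synovium, the tissue that lines the joint. The set holds 40 genes chosen by name, of which 35 had an entry of that name among the 32883 genes of the deposited table and 34 had at least 1 read. Atp2a1, Myh1, Myh2, Tcap and Ttn were not analysed here. The libraries come from Lewis rats and fall into the groups TZG, AIA and NC, 3 libraries each. The labels do not spell these names out, and from the series title, which concerns a liquid extract and rheumatoid arthritis, TZG was read as the extract group, AIA as the arthritis model and NC as the control. Whether the rats of TZG were arthritic, how long or at what dose anything was given and how old the rats were is not stated. Nor is it stated that libraries of the same group are from different rats, so p-values reflect no more than the variation among these libraries, which may be technical.

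Skeletal muscle fibres contract when myosin thick filaments pull on actin thin filaments, and calcium released from the sarcoplasmic reticulum starts this through the troponin complex on the thin filament. Fast and slow fibres carry out the same steps with different members of the same gene families, among them myosin heavy chains, myosin light chains and the troponin C, I and T subunits, while skeletal actin and creatine kinase serve both. Synovium itself contains no such fibres, but lies next to muscle and tendon, and muscle can enter with the dissected tissue. In bulk RNA of a tissue, fewer cells of a type and less RNA per cell cannot be told apart.

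Promoter sequences are shown for 3 genes whose levels the results turn on: Acta1 and Myh4, which had the most reads of the shared and of the fast genes in the library richest in muscle transcripts, and the slow gene Myh7, which followed another order across libraries. Of the 35 genes, 28 matched an entry in RefSeq's promoter sequences of build GRCr8 (33469 promoters in all), and the 250 bases before the start are given. The Acta1 stretch is chr19:68784195-68784444 on the minus strand, the Myh4 stretch chr10:52421898-52422147 on the plus strand and the Myh7 stretch chr15:32438195-32438444 on the minus strand. Capitals mark matches on either strand to the CArG box, which serum response factor binds, and to the TATAAA motif.
Acta1: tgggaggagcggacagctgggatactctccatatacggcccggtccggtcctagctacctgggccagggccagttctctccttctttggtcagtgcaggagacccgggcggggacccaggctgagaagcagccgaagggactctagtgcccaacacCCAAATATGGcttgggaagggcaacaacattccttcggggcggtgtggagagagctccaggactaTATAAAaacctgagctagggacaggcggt
Myh4: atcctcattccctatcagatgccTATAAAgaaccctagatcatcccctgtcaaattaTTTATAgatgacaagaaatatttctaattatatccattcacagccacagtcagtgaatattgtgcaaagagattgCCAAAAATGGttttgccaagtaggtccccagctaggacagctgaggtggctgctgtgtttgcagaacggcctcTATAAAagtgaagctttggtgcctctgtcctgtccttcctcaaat
Myh7: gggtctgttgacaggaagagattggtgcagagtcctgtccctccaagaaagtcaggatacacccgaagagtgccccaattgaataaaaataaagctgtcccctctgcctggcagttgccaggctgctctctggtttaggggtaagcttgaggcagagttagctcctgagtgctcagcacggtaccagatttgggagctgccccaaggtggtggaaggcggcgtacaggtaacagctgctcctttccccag
The CArG match began 94 bases before the Acta1 start and 118 before the Myh4 start, and a TATAAA match 29 and 45 bases before them. The Myh7 stretch held neither motif. A CArG match occurred in 4 of the 28 promoters (Acta1, Myh4, Myl3 and Ldb3) and in 1.5% of all promoters of the same length, and TATAAA in 10 of the 28 and in 12.9% of all. The E-box CANNTG, which myogenic factors such as MyoD bind, occurred in 26 of the 28 and in 65.5% of all. The MEF2 motif was found in 0 of the 28 and in 0.523% of all, and the forkhead motif TGTTTAC in 1 of the 28 (Trim63) and in 3.21% of all. Matches of different motifs were free to overlap, and a match describes letters only.

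Libraries held 12536231 to 16402126 reads, and levels are given as CPM, read counts relative to the TMM-scaled size of the library. At this depth a count of 0 allows up to 3 reads, or 0.19 to 0.265 CPM, and all intervals below are 95% intervals that cover counting error only. Transcripts of 10 synovial fibroblast genes were present in every library, at a summed 3255 to 5277 CPM in TZG, 4465 to 9580 CPM in AIA and 11950, 12240 and 2638 CPM in the NC libraries C56, C59 and C61. C61 stood apart, with 14.3% of its reads on mitochondrial genes against 5.79% to 8.52% in the other 8. In the TZG library G48 genes of cartilage summed to 8352 CPM, against 17.6 to 779 CPM in the others. In the AIA library M8 genes of red cells summed to 4923 CPM, against 189 to 1038 CPM elsewhere. Results are therefore given with and without these libraries. Of the 9 columns, G31, G48, M2 and M8 were placed in their group by letter alone. Values of 3 libraries stand in the order G30, G31 and G48 for TZG, M2, M6 and M8 for AIA and C56, C59 and C61 for NC.

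The muscle genes together took 0.0289%, 0.0326% and 0.0225% of the reads of the TZG libraries G30, G31 and G48, and 0.0326%, 0.0292% and 0.0255% of those of the AIA libraries M2, M6 and M8. In NC they took 0.0527% in C56, 0.229% in C59 (0.227% to 0.232%, Wilson) and 3.48% in C61 (3.47% to 3.49%). The NC libraries thus differed among themselves far more than any library of TZG differed from any of AIA. Without Des, Ldb3 and Fbxo32, which most libraries carried at a level of their own, the shares were 0.00577% to 0.00944% in TZG, 0.00636% to 0.00968% in AIA and 0.0183%, 0.204% and 3.36% in C56, C59 and C61.

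**Figure D1:**
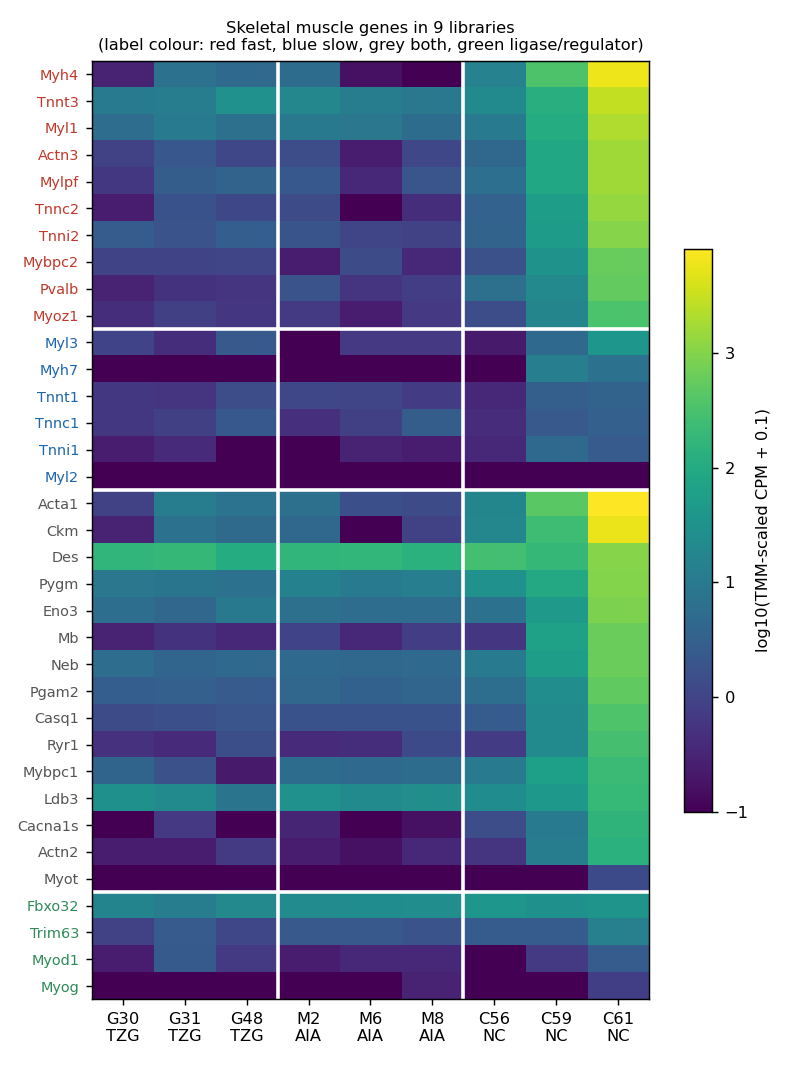
Heat map of the 35 genes (down) in the 9 libraries (across, TZG, AIA, NC), coloured by log10 of TMM-scaled CPM plus 0.1, with genes ordered by class. C61 is bright for nearly every fast and shared gene, C59 is intermediate, and Des, Ldb3, Fbxo32, Tnnt3 and Myl1 are above the dark background in all 9 libraries.

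Acta1, skeletal alpha-actin and the main thin filament protein of both fibre types, had 0.8, 11.6 and 7.28 CPM in the TZG libraries, 6.45, 1.49 and 1.31 CPM in the AIA libraries and 18.0, 455 and 8195 CPM in C56, C59 and C61. The gene (ENSRNOG00000017786) lies on chromosome 19 at 56674074 to 56677084 in the deposited table, whose genome build is not given in the sources used here. Each NC library was above every TZG and AIA library, and the step between NC libraries exceeded the step from C56 to the other groups. Ckm, muscle creatine kinase, which buffers ATP, followed with 0.2, 7.13 and 4.98 CPM in TZG, 4.32, 0 and 0.827 CPM in AIA and 19.0, 249 and 5770 CPM in NC. Mb, the oxygen store myoglobin, stayed low in C56: it had 0.2, 0.415 and 0.256 CPM in TZG, 0.88, 0.272 and 0.689 CPM in AIA and 0.507, 65.4 and 615 CPM in NC, so that C56 lay within the range of AIA.

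Fast fibre genes had their highest level in C61. Per kilobase of gene length, levels in C61 stood in the order Acta1 at 5707, Ckm at 4012, the fast regulatory light chain Mylpf at 2229, fast troponin T Tnnt3 at 2112, the fast light chain Myl1 at 2049 and fast troponin C Tnnc2 at 1810 CPM per kilobase. Parvalbumin, Pvalb, a calcium buffer that speeds relaxation of fast fibres, stood at 1004 CPM per kilobase. Actn3, the alpha-actinin of fast fibre Z-discs, stood at 577 CPM per kilobase. Fast troponin I, Tnni2, was not ranked, since its recovered length of 3130 bases is longer than its position on chromosome 1, 215609036 to 215611658. With 1 library no spread can be given for this order.

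Fast troponin C, Tnnc2, had 0.133, 1.59 and 1.09 CPM in TZG, 1.25, 0 and 0.345 CPM in AIA and 3.43, 55.8 and 1361 CPM in NC. Fast troponin I, Tnni2, had 2.53, 1.73 and 2.81 CPM in TZG, 1.76, 0.95 and 0.827 CPM in AIA and 3.62, 49.96 and 1068 CPM in NC. Both genes were lower in every TZG and AIA library than in any NC library. Fast troponin T, Tnnt3, did not separate in that way: it had 10.9, 11.8 and 30.3 CPM in TZG, 18.8, 11.7 and 9.17 CPM in AIA and 21.0, 119 and 2860 CPM in NC, and G48 stood above C56. Myl1 had 5.67, 10.4 and 6.32 CPM in TZG, 9.46, 8.82 and 5.38 CPM in AIA and 10.3, 109 and 2166 CPM in NC, with G31 and C56 at nearly the same level.

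Mylpf had 0.533, 2.77 and 3.51 CPM in TZG, 2.2, 0.272 and 1.86 CPM in AIA and 6.03, 83.0 and 1630 CPM in NC. Actn3 had 0.8, 2.08 and 1.02 CPM in TZG, 1.32, 0.136 and 1.03 CPM in AIA and 4.19, 84.8 and 1661 CPM in NC. Pvalb had 0.2, 0.415 and 0.447 CPM in TZG, 1.69, 0.475 and 0.689 CPM in AIA and 6.53, 20.3 and 539 CPM in NC. For these 3 genes NC was highest in every library, and for Pvalb each AIA library was also above each TZG library. The fast myosin binding protein Mybpc2, a thick filament protein, had 0.933, 0.9 and 0.958 CPM in TZG, 0.147, 1.29 and 0.276 CPM in AIA and 1.52, 31.2 and 601 CPM in NC. Myoz1, a Z-disc protein of fast fibres that binds calcineurin, had 0.333, 0.761 and 0.511 CPM in TZG, 0.586, 0.136 and 0.551 CPM in AIA and 1.33, 17.4 and 327 CPM in NC.

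The fast heavy chain recorded as Myh4 (ENSRNOG00000049695), the motor of the fastest fibres, had 0.2, 6.85 and 4.73 CPM in TZG, 5.28, 0.0679 and 0 CPM in AIA and 14.9, 347 and 6107 CPM in NC. It was present in G31, G48, M2 and all NC libraries and close to 0 in G30, M6 and M8. This record is uncertain. It spans 134410 bases on chromosome 10 (53713938 to 53848347) with a counted length of 19176 bases, 3.18 times that of the embryonic heavy chain Myh3, and it overlaps the record of Myh8. In RefSeq's gene order Myh2 and Myh1 stand between Myh3 and Myh4, so reads of neighbouring heavy chains cannot be told apart from those of Myh4. The record was for this reason not ranked by level per kilobase.

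Slow fibre genes behaved otherwise. Myh7 (ENSRNOG00000016983), the slow and cardiac beta heavy chain, on chromosome 15 at 33634422 to 33656089, had 0 reads in all 3 TZG libraries, all 3 AIA libraries and C56, with 192 reads in C59 and 76 in C61. This is 12.6 CPM in C59 and 6.7 CPM in C61, so the library with less skeletal actin had the higher level. Against 3 reads summed over a group, Myh7 was at least 95.3-fold lower in TZG and at least 90.6-fold lower in AIA than in NC, and it was too sparse to be tested. The bounds were 42.2 and 40.1 without C59 and 152 and 144 without C56, which had 0 reads like TZG and AIA. The slow troponin I gene Tnni1 was likewise higher in C59, with 0.133, 0.277 and 0 CPM in TZG, 0, 0.204 and 0.138 CPM in AIA and 0.254, 4.67 and 2.47 CPM in NC. Myl2, the slow regulatory light chain, had 0 reads in all 9 libraries.

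Slow troponin C, Tnnc1, had 0.533, 0.761 and 2.11 CPM in TZG, 0.367, 0.747 and 2.76 CPM in AIA and 0.317, 2.3 and 3.09 CPM in NC. G48 and M8, the libraries rich in cartilage and red cell transcripts, stood near C59 for this gene, and a part of that tissue in the value was not tested. Slow troponin T, Tnnt1, had 0.533, 0.484 and 1.34 CPM in TZG, 1.03, 0.95 and 0.62 CPM in AIA and 0.254, 3.03 and 3.53 CPM in NC. Myl3, the slow essential light chain, had 0.866, 0.346 and 2.24 CPM in TZG, 0, 0.543 and 0.551 CPM in AIA and 0.127, 4.74 and 37.3 CPM in NC. For all 3 genes C56 was lower than most libraries of TZG and AIA, so the groups overlapped.

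The mixture of fast and slow isoform reads differed between the 2 muscle-rich NC libraries. Slow troponin I made up 8.55% of the Tnni1 and Tnni2 reads in C59 (6.74% to 10.7%, exact binomial) and 0.231% in C61 (0.153% to 0.333%). Slow troponin C made up 3.96% of its pair in C59 (2.78% to 5.47%) and 0.226% in C61 (0.158% to 0.315%), and slow troponin T 2.48% in C59 (1.82% to 3.29%) and 0.123% in C61 (0.088% to 0.168%). All 3 slow troponin subunits thus had the larger share in C59. Myh7 made up 3.52% of the reads of Myh7 and the Myh4 record in C59 (3.04% to 4.04%) and 0.11% in C61 (0.0864% to 0.137%). Myl3 made up 4.16% of the Myl3 and Myl1 reads in C59 (3.27% to 5.21%) and 1.69% in C61 (1.54% to 1.86%). The slow share was higher in C59 in all 5 pairs, with intervals that did not overlap, although each library is a single sample and the difference has no replicate check. Tnnc1, Tnnt1 and Myl3 were also read where muscle transcripts were few. Tnnc1 had 2.76 CPM in M8, against 2.3 in C59 and 3.09 in C61, and Tnnt1 1.34 CPM in G48, against 3.03 and 3.53. Myl3 had 2.24 CPM in G48, against 4.74 in C59 and 37.3 in C61. The slow share of the Tnnt1 pair was 3.955% to 7.53% in TZG and AIA, above that of C59. The share of the Myl3 pair was 13.3% in G30 and 26.1% in G48, above C59. It was 3.23% in G31 and 0% in M2, below C59. Shares of the Tnnc1 and Tnnt1 pairs can therefore differ through the fast gene alone. A source outside fibres for reads of the 3 slow genes was not tested.

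**Figure D2:**
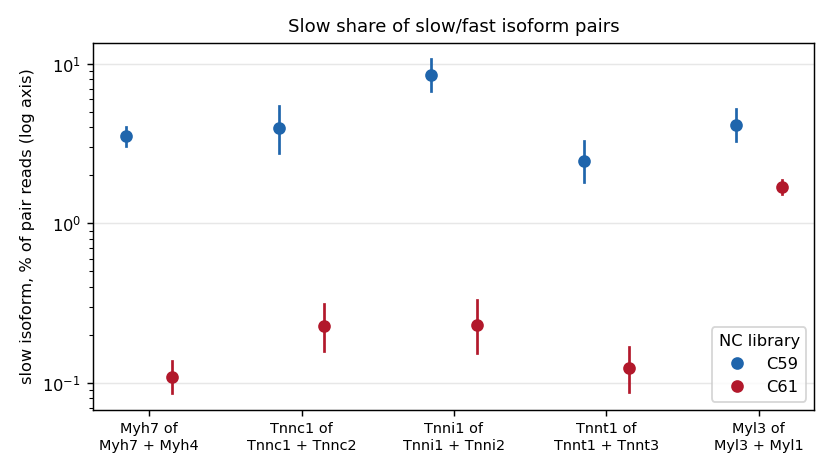
Share of the slow isoform in the reads of 5 slow and fast isoform pairs, in percent on a log axis, for the NC libraries C59 and C61, with bars for exact 95% binomial intervals. The C59 points lie between 2.48% and 8.55% and the C61 points between 0.11% and 1.69%.

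Summed per kilobase, fast members exceeded slow members 32.5-fold in C59 and 213-fold in C61. These sums use the doubtful lengths of Tnni2 and the Myh4 record. The ratio of fast to slow was 7.59 in G30 and 6.06 in G48 of TZG and 7.8 in M6 and 3.76 in M8 of AIA, where it rests on 31 to 89 slow reads. In G31, M2 and C56 fewer than 30 reads fell on slow genes (27, 19 and 15), and no ratio is given. The low ratios of TZG and AIA are sums of traces, in which Tnnt3 and Myl1 made up most fast reads and Myh7 was at 0.

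Gene by gene, the level in C59 as a percentage of that in C61 separated fast from slow genes. The 10 fast genes lay between 3.77% and 5.68%, with a median of 5.07%, and the 5 slow genes with reads between 12.7% and 189%, with a median of 85.8%. The 2 ranges did not overlap, with the limit given above for Tnnc1, Tnnt1 and Myl3. Myh7 stood at 189% (144% to 249%) and Tnni1 also at 189% (121% to 305%), with Tnnt1 at 85.8% (55.0% to 135%), Tnnc1 at 74.6% (45.4% to 123%) and Myl3 at 12.7% (9.75% to 16.3%). Genes of both fibre types ranged from 4.32% for Ckm to 26.2% for Mybpc1, with a median of 7.83% over 14 genes. They overlapped both the fast and the slow range. Acta1, at 5.55% (5.42% to 5.69%), lay with the fast genes, and Mb, at 10.6% (9.94% to 11.4%), above them. Mybpc1, Ldb3 and Des, at 26.2%, 21.5% and 18.1%, were the highest of this class.

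In C56 fast genes stood at 0.244% to 1.21% of their C61 level, with a median of 0.354% over 10 genes. Acta1 was at 0.22%, Ckm at 0.33% and Mb at 0.0825% (0.0356% to 0.163%). Myoglobin was thus the lowest of the shared genes in C56 and above the fast genes in C59. Of the members compared, Fbxo32 alone stood at about its C61 level in C56, at 111% (97.7% to 127%), and it was at 84.0% (73.1% to 96.5%) in C59.

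**Figure D3:**
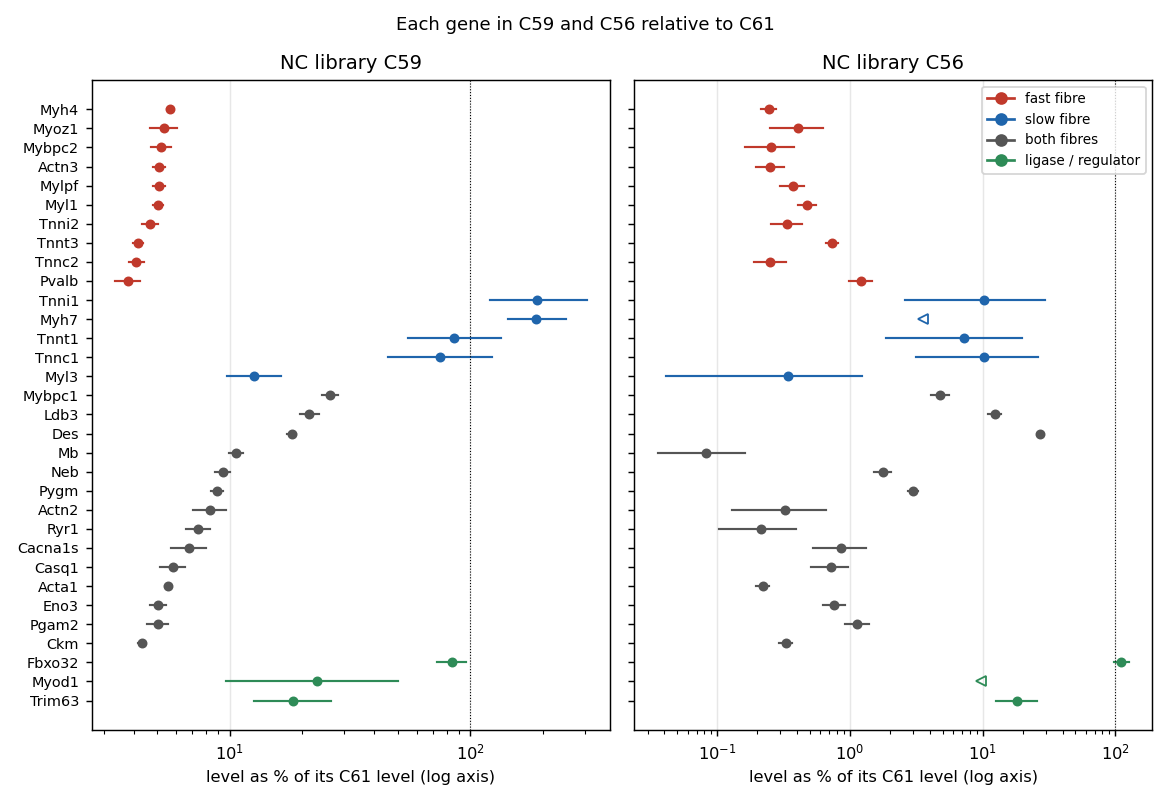
Level of each gene in the NC libraries C59 (left) and C56 (right) as a percentage of its level in C61, on log axes, coloured by class, with bars for 95% counting intervals. Open triangles mark the upper limit of genes with 0 reads, and genes with under 25 reads in C61 are left out. In C59 the fast genes form a narrow column near 5.07% while the slow genes reach 189%.

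Small amounts of Acta1, Ckm and Myh4 reads were also present in TZG and AIA, unevenly across the libraries. Acta1 had 12, 168 and 114 reads in G30, G31 and G48 of TZG and 88, 22 and 19 reads in M2, M6 and M8 of AIA. Ckm had 3, 103 and 78 reads in these TZG libraries and 59, 0 and 12 reads in these AIA libraries, and the Myh4 record 3, 99 and 74 reads in TZG and 72, 1 and 0 reads in AIA. By these genes G31, G48 and M2 were the libraries with traces, and G30, M6 and M8 were nearly free of them, which cuts across both groups. Of the other fast genes Tnnc2, Mylpf and, barely, Tnnt3 divided the libraries in the same way. Actn3, Tnni2, Mybpc2, Pvalb, Myoz1 and Myl1 did not, with Tnni2 at 2.53 CPM in G30 and 1.73 CPM in G31. For each 100 Acta1 reads there were 61.3 Ckm reads in G31, 68.4 in G48 and 67.1 in M2, against 106 in C56, 54.8 in C59 and 70.4 in C61. The Myh4 record had 58.9, 64.9 and 81.8 reads for each 100 Acta1 reads in G31, G48 and M2, against 82.8, 76.3 and 74.5 in C56, C59 and C61.

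Other members were read in libraries that were nearly free of Acta1. In M6, with 22 Acta1 reads and 0 Ckm reads, Tnnt3 had 172 reads, Myl1 130, Eno3 82 and Neb 67. Tnnt3 reached 782 reads for each 100 Acta1 reads in M6 and 1367 in G30, against 34.9 in C61, and Myl1 591 and 708, against 26.4 in C61. The levels of Tnnt3 and Myl1 in TZG and AIA were therefore not in proportion to that of actin. Their order was not unrelated to it, since Myl1 ranked the libraries within TZG and within AIA as Acta1 did.

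AIA was set against NC to see how the arthritis model departed from the control. All 28 genes that could be tested had a lower fitted level in AIA, and none passed. The median log2 fold change was -6.44, against -0.01 over all 15068 genes tested. Actin Acta1 had a log2 fold change of -9.87 ± 2.33 (SE, edgeR adjusted p = 0.116), Ckm of -10.2 ± 2.55 (adjusted p = 0.124), Actn3 of -9.46 ± 2.14 (adjusted p = 0.11, the lowest of the set) and Mb of -8.52 ± 2.05 (adjusted p = 0.118). Fast genes had a median of -8.4 over 10 genes, genes of both fibre types of -5.74 over 13 and the slow genes Tnnc1, Tnnt1 and Myl3 of -1.37. Fold changes of Tnnc1 and Tnnt1 were -0.54 ± 0.93 and -1.37 ± 0.8 (SE, edgeR adjusted p = 0.841 and 0.476).

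In this comparison edgeR called 0 of the 28 genes lower, where it called 0.00664% of all genes lower and 0.0133% in either direction. At an unadjusted p under 0.05 it had 25 of the 28, against 15% of all genes. DESeq2 called 23 of the 28, all lower, against 6.24% of all genes, and limma-voom 0. The libraries of AIA lay below those of NC without overlap in 22 of the 28, against 9.22% of all genes. Of the 28, 22 would have passed the filter on low counts with the TZG and AIA libraries alone, 5 (Mb, Myl3, Myoz1, Pvalb and Ryr1) needed an NC library and 1, Cacna1s, passed through NC only, so these counts describe the 28 and not all 40 genes. Without C61 the median was -2.9 with 0 calls, against 0.0326% of all genes, and 21 genes at an unadjusted p under 0.05, against 16.9%. Without C59 and C61 it was -0.81 over 29 genes with 0 calls, where 0% of all genes were called, and 7 at an unadjusted p under 0.05, against 11%. In the last fit, where C56 stands alone for NC and is assumed to vary like the other groups, the slow genes Tnnc1, Tnnt1 and Myl3 had positive log2 fold changes of 1.98, 1.73 and 1.46.

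Setting TZG against AIA compares extract group and arthritis model, and rests on libraries with few muscle transcripts. The median log2 fold change was 0.08 over 28 genes, against 0 over all genes, and 13 of the 28 were lower. Acta1 had a log2 fold change of 1.09 ± 1.72 (SE, edgeR adjusted p = 0.812) and Ckm of 1.27 ± 1.95 (adjusted p = 0.807), both within their standard error. Fast genes had a median of 0.66 over 10 genes and genes of both fibre types of -0.04 over 13. By edgeR, 0 of the 28 passed, against 0% of all genes, and 1, Fbxo32, had an unadjusted p under 0.05, against 12.6% of all genes. DESeq2 and limma-voom called 0 of the 28, against 2.02% and 0% of all genes. The libraries of TZG lay below those of AIA without overlap in 5 of the 28, against 12.7% of all genes, namely Pvalb, Mybpc1, Pygm, Pgam2 and Fbxo32. In these 5 genes the libraries of AIA also lay below those of NC without overlap.

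TZG was also set against NC, the control. In TZG 19 of the 28 genes fell and 0 rose, against 4.53% of all genes that fell and 10.3% that changed in either direction by edgeR. Of the 22 genes that needed no NC library to pass the filter, 14 fell. The median log2 fold change was -6.53, against -0.02 over all genes. Of the fast genes 8 of 10 fell, of the genes of both fibre types 10 of 13, of the slow genes 0 of 3 and of the ubiquitin ligases 1 of 2. These counts include Pvalb, Myoz1, Mb and Ryr1, which needed an NC library to pass the filter, and Cacna1s, which passed through NC only. Log2 fold changes were -8.78 ± 2.22 for Acta1 (SE, edgeR adjusted p = 0.042) and -8.97 ± 2.21 for Tnnc2 (adjusted p = 0.0389). Those of Pvalb and Mb, -9.02 ± 1.93 and -9.58 ± 2.2, are description only, as both genes leaned on NC to be tested. Ckm stood at the edge of the threshold, with -8.94 ± 2.4 (adjusted p = 0.0499).

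The other fast genes that fell were Actn3, Tnni2, Myl1, Mylpf, Mybpc2 and Myoz1, with log2 fold changes from -8.81 for Actn3 to -6.67 for Myl1. Among the shared genes Neb, the giant protein nebulin that lies along the thin filament, fell with -5.6 ± 1.31 (SE, edgeR adjusted p = 0.0334). Neb had 5.53, 3.94 and 4.6 CPM in TZG, 4.76, 4.55 and 4.69 CPM in AIA and 10.9, 57.6 and 615 CPM in NC. TZG and AIA stood at nearly the same level for this gene, and every NC library was above them.

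Of the 3 genes of the set that link excitation to calcium release, Ryr1 and Casq1 fell, and Cacna1s had few reads outside NC. Ryr1 needed an NC library to pass the filter, and its call leans on NC for that reason. Ryr1, the calcium release channel, had 0.4, 0.277 and 1.41 CPM in TZG, 0.293, 0.339 and 1.17 CPM in AIA and 0.634, 21.9 and 296 CPM in NC (TZG against NC -7.22 ± 1.9 SE, edgeR adjusted p = 0.0471), and here G48 stood above C56. Cacna1s, the voltage sensor that opens it, had 0, 8 and 0 reads in TZG, 3, 0 and 1 reads in AIA and 21, 160 and 1765 reads in NC. It is among the 19 genes that passed, but it entered the test through the NC libraries alone and had to differ, so no fold change is given. Casq1, which binds calcium inside the reticulum, had 1.27, 1.45 and 1.85 CPM in TZG, 1.61, 1.63 and 1.65 CPM in AIA and 2.6, 21.1 and 363 CPM in NC (-6.39 ± 1.61, adjusted p = 0.0413). Cacna1s and Casq1 were lower in each TZG library than in any NC library. Of another 18 listed genes of this step, 13 were tested and 4 fell (Jph1, Cacng1, Hrc and Scn4a), while 0 rose. Of all genes 4.53% fell and 5.79% rose, and Cacng1 leaned on NC libraries to pass the filter.

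Of the 2 glycolytic enzymes of the set, Pgam2 fell and Eno3 did not pass. Pgam2, muscle phosphoglycerate mutase, had 2.8, 3.05 and 2.49 CPM in TZG, 4.18, 3.19 and 3.93 CPM in AIA and 5.9, 26.0 and 517 CPM in NC, and it fell in TZG against NC (-6.04 ± 1.51 SE, edgeR adjusted p = 0.0405). Eno3, muscle enolase, had 5.8, 4.15 and 9.46 CPM in TZG, 6.38, 5.57 and 5.58 CPM in AIA and 6.79, 44.8 and 888 CPM in NC. It did not pass (-5.59 ± 1.54 SE, edgeR adjusted p = 0.0532), and G48 lay above C56. Tnnt3 and the Myh4 record did not pass either, at -5.82 ± 1.63 (adjusted p = 0.0558) and -9.1 ± 2.56 (adjusted p = 0.0563).

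The calls in TZG against NC rested on few libraries. At an unadjusted p under 0.05 there were 26 of the 28, against 29.1% of all genes, DESeq2 called 25 against 19.6% of all genes, and limma-voom 1, Fbxo32, against 7.72% of all genes. Libraries of TZG lay below those of NC without overlap in 19 of the 28, against 15.2% of all genes. Leaving out C61 left 10 calls, against 7.72% of all genes, and a median of -3.24. Leaving out C59 and C61 gave a median of -0.84 over 29 genes, of which 8 had an unadjusted p under 0.05, against 17.4% of all genes, and 0 calls, in a fit that called 1 of all 15841 genes (0.00631%). The number of members tested changed with the library left out. Leaving out G30 left 0 calls of 32, against 3.82% of all genes. Leaving out G31 left 1 of 31 (2.99%) and G48 1 of 32 (6.36%). Leaving out M2 or M6 left 4 of 32 (7.33% and 6.51%), M8 7 of 32 (8.59%) and C59 12 of 29 (5.6%). Without C56 21 of 32 were called (2.18%), or 65.6%, against 67.9% of the 28 with all libraries. Leaving out C61, M8 and G48 together left 3 of 27, Pygm, Pvalb and Fbxo32, or 11.1%, against 14.4% of all genes.

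**Figure D4:**
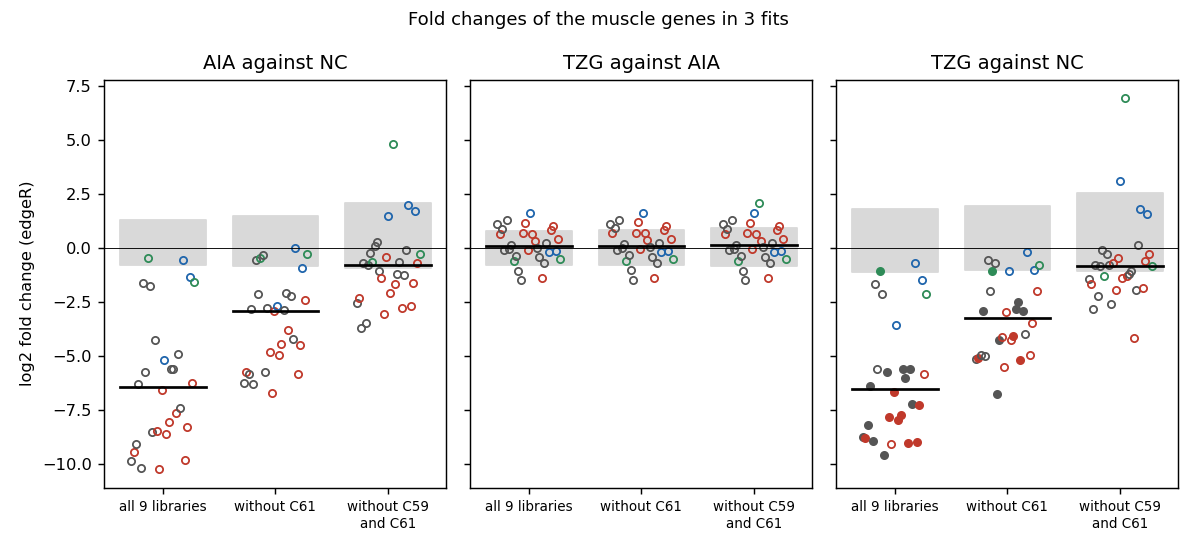
Log2 fold changes by edgeR of the muscle genes in the 3 comparisons, with all 9 libraries, without C61, and without C59 and C61, where each circle is a gene coloured by class (red fast, blue slow, grey both, green ligase or regulator), filled circles pass an adjusted p of 0.05, black bars are medians and grey boxes span the 5th to 95th percentile of all genes. The medians against NC move from -6.44 and -6.53 to -0.81 and -0.84 as the 2 NC libraries are left out, and those of TZG against AIA stay between 0.08 and 0.15.

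Pygm, muscle glycogen phosphorylase, had 8.66, 8.03 and 6.84 CPM in TZG, 14.6, 11.2 and 12.4 CPM in AIA and 30.5, 90.5 and 1020 CPM in NC. The 3 groups did not overlap, with TZG lowest. Pygm fell in TZG against NC (-5.6 ± 1.21 SE, edgeR adjusted p = 0.0274), also without C61 (-2.93 ± 0.41, adjusted p = 0.0193), and did not pass without C59 and C61 (-1.96 ± 0.22, adjusted p = 0.0817). Its difference between TZG and AIA was -0.7 ± 1.04 (adjusted p = 0.8).

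Mybpc1, the slow-type myosin binding protein that fast fibres also make, had 3.8, 1.52 and 0.128 CPM in TZG, 5.42, 4.62 and 5.45 CPM in AIA and 10.9, 59.4 and 227 CPM in NC. The groups did not overlap, and G48 held only 2 reads. It fell in TZG against NC (-5.77 ± 1.21 SE, edgeR adjusted p = 0.0259; -4.25 ± 1.0 and adjusted p = 0.046 without C61) and did not pass against AIA (-1.51 ± 1.14, adjusted p = 0.59).

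Des encodes desmin, the intermediate filament of all muscle, which smooth muscle of vessels also makes. It had 174, 189 and 110 CPM in TZG, 173, 177 and 136 CPM in AIA and 282, 188 and 1038 CPM in C56, C59 and C61. C59, rich in actin, lay within the range of TZG, and the gene did not pass in TZG against NC (-1.67 ± 0.57 SE, edgeR adjusted p = 0.0956). Ldb3, a PDZ and LIM protein of the Z-disc, had 29.8, 22.1 and 7.6 CPM in TZG, 29.8, 21.0 and 26.3 CPM in AIA and 24.0, 41.7 and 194 CPM in NC, and did not pass either (-2.12 ± 0.77, adjusted p = 0.111). For Ldb3 the AIA range enclosed C56.

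Fbxo32 (ENSRNOG00000006738), on chromosome 7 at 98063735 to 98098268, encodes atrogin-1, the F-box part of a ubiquitin ligase that is known for its rise in wasting muscle. It had 16.3, 11.4 and 20.1 CPM in TZG, 23.6, 24.0 and 25.9 CPM in AIA and 38.3, 29.0 and 34.5 CPM in C56, C59 and C61. All 3 groups were apart, TZG lowest and NC highest, and C61 was not the highest NC library. Fbxo32 averaged 15.9 ± 4.37 CPM in TZG, 24.5 ± 1.21 CPM in AIA and 33.9 ± 4.7 CPM in NC (SD, n = 3 each). It fell in TZG against NC (log2 fold change -1.09 ± 0.2 SE, edgeR adjusted p = 0.0193). The other differences did not pass, at -0.47 ± 0.2 for AIA against NC (adjusted p = 0.317) and -0.62 ± 0.2 for TZG against AIA (adjusted p = 0.313).

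The Fbxo32 call held in 15 of 19 alternative fits, with limma-voom (adjusted p = 0.024) and DESeq2 (adjusted p = 4.6e-05) among them. It was lost without G30 (adjusted p = 0.053), without C56 (0.06), without C59 and C61 (0.11) and with only the 5 columns matched by number (0.37), with log2 fold changes of -1.1, -1, -1.28 and -1.06. Fbxo32 is not particular to skeletal fibres. The 12 smooth muscle markers, Des among them, summed to 2391, 2851 and 1687 CPM in TZG and 3879, 2843 and 2950 CPM in AIA. In NC they summed to 5396, 3364 and 5958 CPM. Their ranges overlapped between neighbouring groups, where those of Fbxo32 did not. Between TZG and AIA the overlap was slight, with 2851 CPM in G31 against 2843 CPM in M6. Within TZG the order of the libraries was the reverse of that for Fbxo32, while C59 was lowest in NC for both. All 12 were present in every library, and 3 of 12 (Myh11, Synpo2 and Pln) fell in TZG against NC, against 4.53% of all genes. By edgeR 11 of the 12 had an unadjusted p under 0.05 in this comparison, against 29.1% of all genes. Their median log2 fold changes were -1.05 in TZG against NC, -0.54 in AIA against NC and -0.4 in TZG against AIA. Those of Fbxo32 were of similar size, at -1.09, -0.47 and -0.62. Adipocyte genes summed to 1158 to 5191 CPM in TZG, 6104 to 8741 CPM in AIA and 2989 to 10070 CPM in NC. The part of these tissues in the Fbxo32 difference was not tested.

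**Figure D5:**
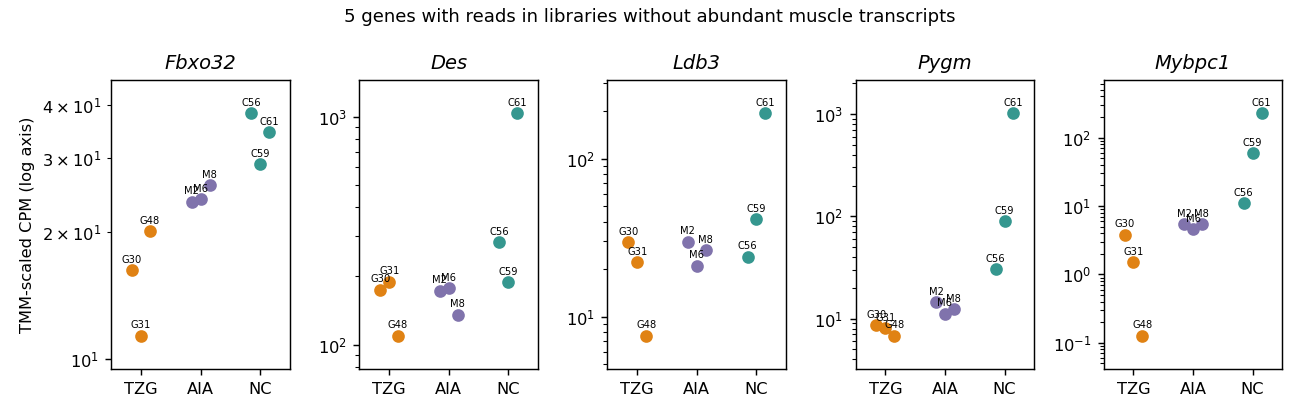
TMM-scaled CPM, on log axes, of Fbxo32, Des, Ldb3, Pygm and Mybpc1 in the 3 libraries each of TZG, AIA and NC, each point being a library. Fbxo32, Pygm and Mybpc1 show 3 groups that do not overlap, TZG lowest, while Des and Ldb3 are raised mainly in C61. Pvalb and Pgam2, not drawn, had the same order of groups. TZG lay below AIA without overlap in 5 of the 28 genes tested, against 12.7% of all genes.

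Trim63, the muscle RING finger ligase MuRF1, had 0.8, 2.49 and 1.02 CPM in TZG, 2.27, 2.24 and 1.72 CPM in AIA and 2.54, 2.57 and 13.9 CPM in NC. It lay below NC in every TZG and AIA library, by little against C56 and C59, and did not pass in TZG against NC (-2.13 ± 0.74 SE, edgeR adjusted p = 0.0994). The myogenic factor Myod1 had 2, 34 and 9 reads in TZG, 2, 4 and 4 in AIA and 0, 9 and 29 in NC. G31, at 2.35 CPM, stood close to C61, at 2.56 CPM, with 168 Acta1 reads against 92903. Myog, which drives differentiation of myoblasts, had 3 reads in M8, 8 in C61 and 0 elsewhere. Myot, a Z-disc protein, had 13 reads in C61 and 0 elsewhere. Actn2, the alpha-actinin of all fibres, had 0.133, 0.138 and 0.575 CPM in TZG, 0.147, 0.0679 and 0.276 CPM in AIA and 0.444, 11.4 and 138 CPM in NC. These genes other than Trim63, together with Tnni1, Myh7 and Myl2, were below the filter on low counts and were not tested.

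Other muscle genes, from 6 lists on the Z-disc and M-line, calcium handling, energy supply, developmental isoforms, satellite cells and the neuromuscular junction, were read beside the set. Of 99 listed genes 95 had an entry and 61 were tested. In TZG against NC 14 fell and 1 (Tpm3) rose by edgeR, against 4.53% of all genes that fell and 5.79% that rose. In AIA against NC 0 passed by edgeR and 33 had an unadjusted p under 0.05, against 15% of all genes. In TZG against AIA 0 passed by edgeR and 11 of 61 had an unadjusted p under 0.05, against 12.6% of all genes. The median log2 fold changes were -1.51, -1.24 and -0.25 in these 3 comparisons. The genes that fell were Myom1, Myom2, Nrap, Cmya5, Klhl40, Sgca, Dmd, Hspb7, Cryab, Jph1, Cacng1, Hrc, Scn4a and Phkg1. Cacng1, a subunit of the voltage sensor, had 0.333, 0.277 and 0.383 CPM in TZG, 1.03, 0.339 and 0.414 CPM in AIA and 4.82, 7.04 and 47.6 CPM in NC. Outside NC it had 4 to 14 reads in a library, and Nrap had 0 to 10. Both genes leaned on NC, where they were high, to pass the filter on low counts, so no fold change is given for them. Dmd, which encodes dystrophin, was lowest among the NC libraries in C61: it had 27.0, 24.98 and 23.6 CPM in TZG, 39.4, 32.4 and 37.9 CPM in AIA and 61.8, 58.4 and 47.1 CPM in C56, C59 and C61 (TZG against NC -1.15 ± 0.14 SE, edgeR adjusted p = 0.0129).

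Csrp3, the muscle LIM protein, which is richer in slow fibres and heart, had 63 reads in C59 and 22 in C61, with 1 read in G48 and 0 in the other libraries, the same order of C59 and C61 as for Myh7 and Tnni1. The satellite cell gene Pax7 had 2 reads in C61 and 0 elsewhere, and Myf5 had 0 reads in all 9 libraries. Myh3 and Myh8, heavy chains of developing fibres, had 18 and 6 reads in C61, 8 and 4 in C59 and 0 elsewhere, though Myh8 shares its position with the Myh4 record.

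The genes whose level across the 9 libraries was most like the summed level of the set were taken by Pearson's r of log2(CPM + 1), over 11384 genes. The 15 most alike had r from 0.989 to 0.996, and the named ones included Fitm1, Ankrd23, Ppp1r3a, Sypl2, Nrap, Eef1a2, Ckmt2, Trdn, Cox6a2, Smtnl1 and Trim54. Fitm1 had 0, 0.0692 and 0 CPM in TZG, 0, 0 and 0 CPM in AIA and 0.254, 2.5 and 27.8 CPM in NC. These r rest on C59 and C61: over the other 7 libraries they ran from 0.04 to 0.93, and Smtnl1 had no reads there.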

How the data were processed

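The members and gene lists were chosen with earlier results of these data known. Per the labels' protocols, synovial RNA was isolated with an RNeasy kit and sequenced from SMARTER mRNA-Seq libraries; strand is not stated. Values are raw whole-number counts of reads for each gene, as deposited by the authors, beside deposited FPKM values, equal to counts over gene length and library total. The submitters' processing notes name HISAT2, fastp, edgeR 3.30.3 and StringTie 1.3.3b without saying what each did; the build is not given in the sources used here. Both deposited tables hold the same values. Gene lengths were recovered from the FPKM columns matched by number, and the other 4 FPKM columns were not used. C56, C59, C61, G30 and M6 carry the number of a sample title in their group; G31, G48, M2 and M8 were placed by letter, and which sample each is remains unknown.

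Libraries of 12536231 to 16402126 reads were fitted together with edgeR 4.0.16 (R 4.3.3; robust quasi-likelihood, TMM factors, filterByExpr), a mean per group, on 15068 genes, with Benjamini-Hochberg adjustment over all of them and a threshold of 0.05; 28 of 35 members entered. Standard errors were taken as log2 fold change over root F. The fit was tested on simulated data with known changes. Every member was named, and from other lists those past the threshold; single examples beyond these (Csrp3, Pax7, Myf5, Myh3, Myh8) were chosen after their values were seen. Intervals are 95% Wilson or exact intervals. Alternatives were RLE factors, TMM factors without muscle genes, no filter, a filter of 5 CPM in 3 libraries, 2 groups at a time, the 5 columns matched by number, each library left out, C59 and C61 or C61, M8 and G48 left out, limma-voom (limma 3.58.1) and DESeq2 1.42.0.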

Additional observations from a re-analysis of the deposited data

How the results depend on the processing

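Counts of calls moved with the fit in the comparisons with NC, and in TZG against AIA 0 members were called in every alternative run. In AIA against NC, DESeq2 called 23 of 28 genes where edgeR called 0. In TZG against NC edgeR called 19 of 28 genes, or 67.9%. With no filter on low counts 4 of 34 were called (5.63% of all genes). With a filter of 5 CPM in 3 libraries 10 of 15 were called (11.5%), or 66.7%, nearly the share of the main fit. There was 1 call of 27 with 2 groups compared only (5.19%), 3 of 27 without C61, M8 and G48, and 1 of 28 with limma-voom. The median log2 fold change moved to -0.81 in AIA against NC and -0.84 in TZG against NC without C59 and C61, to -2.88 and -3.11 without C61, M8 and G48, and to -4.13 and -4.4 with limma-voom. With each library left out in turn, 28 to 32 members were tested. Calls ran from 0 to 0 in AIA against NC, 0 to 0 in TZG against AIA and 0 to 21 in TZG against NC. The medians then ran from -7.02 to -2.9, 0.02 to 0.27 and -7.1 to -3.24 in the same order.

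Without C59 and C61 the log2 fold change turned to 0.25 for Mb, 1.98 for Tnnc1, 1.73 for Tnnt1, 1.46 for Myl3 and 0.09 for Ldb3 in AIA against NC, and to 1.8 for Tnnc1, 1.59 for Tnnt1, 3.09 for Myl3 and 0.12 for Ryr1 in TZG against NC; these fits hold a single NC library, assumed to vary like the other groups. Acta1 in TZG against AIA turned to -0.89 with the 5 columns matched by number, a fit with a single library in TZG and in AIA. The other fold changes of the 28 genes against NC, and those of Fbxo32 and Mybpc1 in TZG against AIA, kept their sign in the alternatives run. The fast-to-slow ratio was 10.8 in G30, 9.1 in G48 and 345 in C61 with reads in place of reads per kilobase, while troponin genes alone gave 6.66 in G48, 1.89 in M8, 22.4 in C59 and 524 in C61; lengths of genes set the first, the genes summed the second. The Myh7 bounds without single NC libraries were chosen after seeing the data.

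No paired analysis was possible because the labels give the groups no shared replicate numbers. Depth limits slow genes, Myog, Myod1 and Myot in TZG and AIA, where counts of a few reads decide a level. With 3 libraries a group, and Acta1 at 18.0 to 8195 CPM within NC, differences from NC depend on which NC library is included.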
